A study of Rattus norvegicus with 8 samples.

Results

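The small and cytosolic heat shock proteins described here were 10 genes, the small heat shock proteins Hspb1, Cryab, Hspb6 and Hspb8, the HSP90 genes Hsp90aa1 and Hsp90ab1, the HSP70 gene Hspa8, the J-domain gene Dnajb1, and the chaperonin genes Hspd1 and Hspe1. They were chosen by gene name, and each matched 1 row, so 10 of 31699 rows of the expression table were followed. Hspd1 and Hspe1 encode proteins of the mitochondrial matrix, so the cytosolic name does not cover these 2 members. RNA sequencing was performed on annulus fibrosus cells (AFCs), the cells of the fibrous outer ring of the intervertebral disc, from Sprague Dawley rats. All 8 samples were labelled as exposed to mechanical stretch to induce apoptosis, with no unstretched sample among them. The 4 Lv-Ctrl samples received the lentiviral vector pLVX-shRNA-Puro and the 4 Lv-Piezo1 samples pLVX-shRNA-Puro-Piezo1, whose short hairpin RNA targets the mechanosensitive cation channel Piezo1, and the comparison asked how the genotype labelled Piezo1 knock down changed expression in stretched cells. Per the study's methods, cells of passage 3 were exposed to the virus for 24 h (multiplicity of infection 20), and stretch ran for 36 h at 0.5 Hz with 20% elongation. The rats described in the methods were male and 3 months old, given for the operated animals and not again for those that supplied cells.

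The authors describe the 4 samples of each group as biological repeats and an isolation as pooled tissue of 8 rats, so a sample stands for a pool of animals and not for 1 rat. The labels did not say which sample came from which isolation. The authors count the experiments on cells of 1 isolation as 1 independent repeat, and they give at most 4 such repeats. By that description the 8 samples came from at most 4 isolations, so the groups share isolations, but the pairs are not known. The fits below treat the groups as unpaired except where a block is named. Values were TPM (transcript abundances that sum to the same total in each sample), which are scaled for transcript length and keep no sequencing depth, so depth was unknown. Among 13103 genes with a mean of at least 1 TPM, correlations of log2(TPM + 1) ran from 0.973 to 0.983 within groups and from 0.939 to 0.945 between groups.

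Piezo1, the target of the hairpin, was listed at 31.1, 33.0, 26.7 and 29.5 TPM in the Lv-Ctrl samples and at 38.1, 37.7, 40.2 and 41.4 TPM in the samples labelled Lv-Piezo1. The groups did not overlap, and the target was higher where the label says it was knocked down (log2 fold change 0.38, SE 0.06, limma adjusted p = 0.00086). The transcript therefore went against the label, and every direction below is a difference between labelled samples. Whether the channel protein was lowered was not tested with these data.

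The labelled cell type was checked against its markers. Of 12 annulus fibrosus and fibroblast genes, 11 reached a mean of 1 TPM, and their summed level was 8651 to 9665 TPM in Lv-Ctrl and 12643 to 13455 TPM in the Lv-Piezo1-labelled samples. The type I collagen genes Col1a1, at 3282 ± 136 TPM and 5835 ± 103 TPM (SD, n = 4 each), and Col1a2, at 2316 ± 141 TPM and 3795 ± 159 TPM, made up most of that sum. Tnmd, the tendon and ligament marker tenomodulin, was listed at 0 in 7 samples and at 0.08 TPM in Lv-Piezo1 4. In counts, higher and lower mean an adjusted p under 0.05, and called adds a log2 fold change of at least 1 in either direction. The decorin gene Dcn (log2 fold change -1.49) and the growth factor receptor gene Pdgfra (-1.36) were called lower, and the periostin gene Postn (1.54) higher (7.67% of all tested genes were called). Over the 11 tested, 6 were higher (41.9% of all tested genes), 4 lower (16.3%) and 1 missed the threshold. The transcription factor genes Scx (0.89, adjusted p = 0.00077) and Mkx (-0.76, adjusted p = 1e-04) went opposite ways. Fmod, the fibromodulin gene, was at -0.99 (adjusted p = 5.5e-07), just short of a call. Of 10 macrophage and leukocyte genes, 9 were under 1 TPM and 5 were listed at 0 throughout, and Cd68, a lysosomal protein gene of macrophages that other cells also express, rose from 0.955 ± 0.899 to 12.3 ± 0.901 TPM. Of 9 endothelial genes 7 were under 1 TPM, Emcn was at 0, Egfl7 led at 29.5 and 30.7 TPM, and the junction gene Esam rose from 0.203 to 5.68 TPM. Tbxt, Noto and Shh of the nucleus pulposus and notochord were at 0, while Cd24 of the same list rose from 3.79 to 21.9 TPM. Among 12 chondrocyte genes Matn1 was at 0 and Acan was the most abundant at 31.6 and 47.1 TPM. Of the 5 tested, 3 were higher (41.9% of all tested genes) and 1 lower (16.3%). Comp rose from 0.738 to 2.86 TPM, Hapln1 fell (-0.41, adjusted p = 0.0011), and Sox9 was at 3.89 and 3.85 TPM with overlapping groups. Under quantile normalization Sox9 was at -0.23 (adjusted p = 0.033).

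Smooth muscle genes separated the labels widely. The summed level of 12 smooth muscle and pericyte markers was 488, 476, 477 and 475 TPM in Lv-Ctrl and 4807, 4865, 4863 and 4705 TPM in the Lv-Piezo1-labelled samples. Of these, 10 were tested, 10 were higher (41.9% of all tested genes) and 8 were called (7.67% of all tested genes). The most abundant were Tagln, the actin-binding protein transgelin (219 ± 4.64 against 2730 ± 41.2 TPM), and Acta2, smooth muscle actin (51.2 ± 2.27 against 1344 ± 40.5 TPM). Myh11, Cnn1, Des, Lmod1, Myocd and Mcam were the other called genes. Under quantile normalization 7 were called, and Myocd, at 0.92, fell short of a call. In bulk RNA, a larger number of such cells and more of this RNA per cell cannot be told apart.

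Heat shock proteins are molecular chaperones that keep other proteins folded. The small ones form oligomers that hold unfolding clients without using ATP and, in muscle and in cells under strain, bind actin filaments, filamin and intermediate filaments. HSP70 proteins, driven by J-domain partners, refold those clients or pass them to HSP90, and many of these genes are induced through heat shock factor 1 (HSF1) when proteins unfold.

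All 10 genes passed the filter on low values, and they spanned a wide range of levels. In Lv-Ctrl the order of mean TPM was Hspa8 (1609), Hspb1 (723), Hsp90ab1 (530), Hspb8 (316), Cryab (295), Hsp90aa1 (216), Hspe1 (108), Hspd1 (99.9), Hspb6 (61.2) and Dnajb1 (39.98). Only Hspb8 with Cryab and Hspe1 with Hspd1 overlapped as neighbours in that order. In the Lv-Piezo1-labelled samples Cryab stood above Hspb8 without overlap, Hspd1 and Hspe1 still overlapped, and the other places were the same. Hspa8 ranked number 84 of all tested genes by mean TPM and Dnajb1, the lowest of the 10, still exceeded 75.8% of them. The 10 genes together took 3999, 3961, 4047 and 3983 TPM in Lv-Ctrl and 4628, 4540, 4564 and 4493 TPM in the Lv-Piezo1-labelled samples, so each of the latter was above each of the former. This sum does not stand for each gene. The largest rises in TPM were those of Hspb1 (mean 723 to 1156) and Cryab (295 to 484). It was also not rescaled, and the median log2 fold change of all tested genes was 0.142 with TPM as deposited.

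A gene was called at a limma adjusted p under 0.05 together with a log2 fold change of at least 1 in either direction, and 7.67% of the tested genes (1005 of 13103) were called. None of the 10 heat shock genes was (0 of 10), while 8 of 10 had an unadjusted limma p under 0.05, against 62.3% of all tested genes. With no limit on the fold change, 7 of 10 had an adjusted p under 0.05, against 58.2% of all tested genes, a share near the background. Of these, 4 were higher in the Lv-Piezo1-labelled samples (41.9% of all tested genes) and 3 lower (16.3% of all tested genes). The groups did not overlap for the same number, 7 of 10, against 54.2% of all tested genes. The median log2 fold change of the 10 genes was 0.04, and that of all tested genes was 0.142. Each of the 7 genes without overlap had an exact two-sided permutation p of 0.029, the smallest that 70 relabelings of 4 against 4 samples can give. Lack of overlap fixes this value, so it adds nothing to the count of 7.

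Among the small heat shock proteins, Hspb1 and Cryab were higher and Hspb6 and Hspb8 lower in the Lv-Piezo1-labelled samples. Hspb1, encoding HSP27, a phosphoprotein that regulates actin assembly, was at 684, 695, 805 and 709 TPM in Lv-Ctrl and at 1222, 1167, 1134 and 1101 TPM in the Lv-Piezo1-labelled samples. Lv-Ctrl 3 was the highest of its group and still 296 TPM below the lowest Lv-Piezo1-labelled sample. The mean rose from 723 ± 55.4 to 1156 ± 51.8 TPM (mean ± SD, n = 4 per group). The log2 fold change was 0.68 (SE 0.06, limma adjusted p = 8.5e-06), or 0.54 above the median of all tested genes.

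Cryab, encoding alpha-B crystallin, which binds desmin and actin filaments, was at 285, 279, 310.0 and 305 TPM in Lv-Ctrl and at 501, 503, 474 and 458.5 TPM in the Lv-Piezo1-labelled samples. The groups were 148 TPM apart at their nearest values, and the mean rose from 295 ± 14.9 to 484 ± 21.7 TPM. Its log2 fold change of 0.71 (SE 0.05, limma adjusted p = 1.8e-06) was the largest in size among the 10 genes. The ratio of Hspb1 to Cryab TPM within a sample was 2.45 ± 0.118 in Lv-Ctrl and 2.39 ± 0.0493 in the Lv-Piezo1-labelled samples, with overlapping ranges.

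Hspb8, a partner of the co-chaperone BAG3 in the removal of damaged filamin and other clients, was at 319.9, 323, 298 and 322 TPM in Lv-Ctrl and at 254, 243, 266 and 274 TPM in the Lv-Piezo1-labelled samples. Its lowest control value, in Lv-Ctrl 3, was above the highest value of the other group. The mean fell from 316 ± 11.9 to 259 ± 13.4 TPM, a log2 fold change of -0.28 (SE 0.04, limma adjusted p = 5e-04). Hspb6, encoding HSP20, known as a kinase substrate in relaxing smooth muscle, was at 61.8, 63.3, 63.5 and 56.4 TPM against 49.3, 49.8, 50.3 and 44.2 TPM. Replicate 4 was the lowest in each group, and the groups did not overlap. The log2 fold change was -0.33 (SE 0.05, limma adjusted p = 0.00069).

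The opposite moves changed the balance within the family. The TPM ratio of Cryab to Hspb8 was 0.892, 0.864, 1.04 and 0.946 in Lv-Ctrl and 1.97, 2.07, 1.78 and 1.67 in the Lv-Piezo1-labelled samples, so Cryab passed from about level with Hspb8 to above it. The ratio of Hspb1 to Hspb8 went from 2.30 ± 0.270 to 4.47 ± 0.396. Ratios within a sample do not depend on a scaling factor per sample. The summed TPM of the 4 genes was 1351 to 1476 in Lv-Ctrl and 1878 to 2027 in the Lv-Piezo1-labelled samples. Smooth muscle tissue expresses Hspb1, Cryab and Hspb6, of which Hspb1 and Cryab were higher here and Hspb6 lower. The summed smooth muscle markers stood at 475 to 488 TPM against 4705 to 4865 TPM in the same samples. The part of smooth muscle genes in these differences was not tested.

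**Figure D1:**
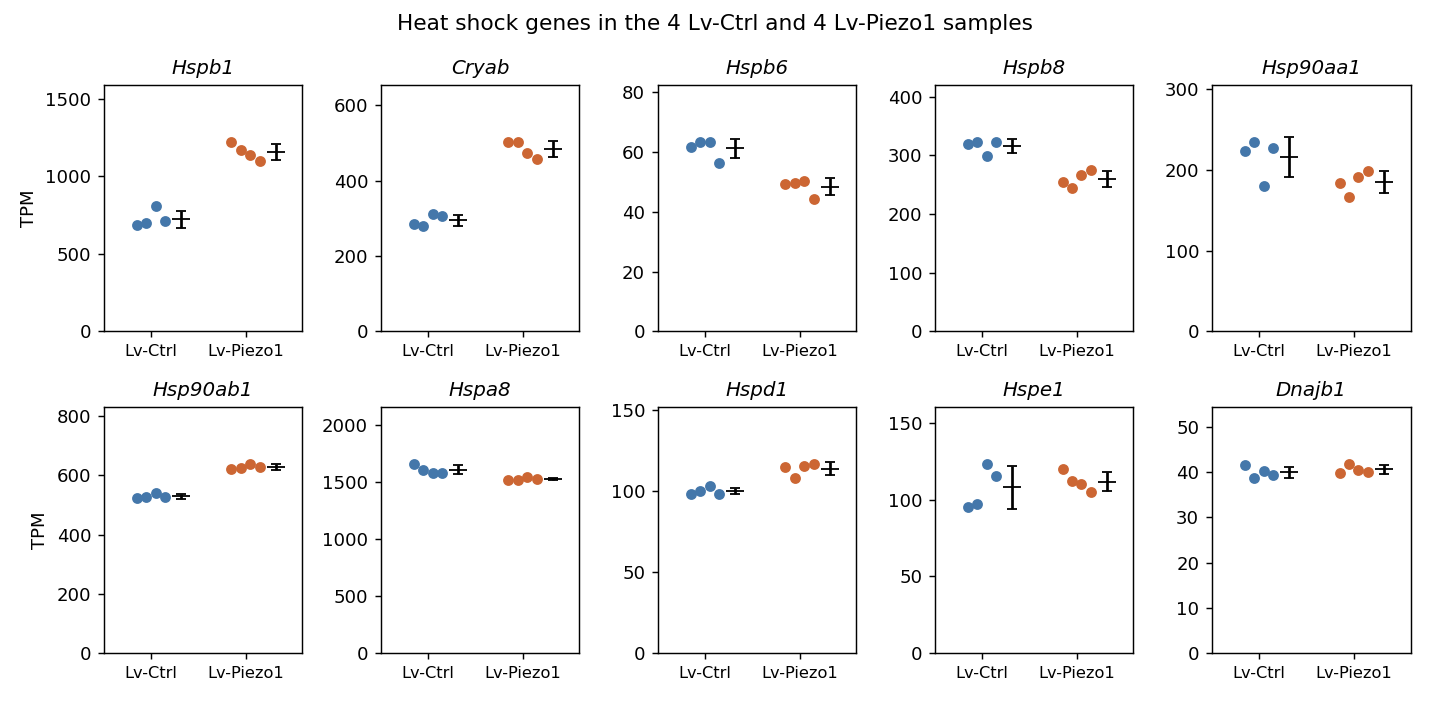
TPM of the 10 heat shock genes, with 1 point per sample (4 Lv-Ctrl in blue, 4 labelled Lv-Piezo1 in orange, replicates 1 to 4 from left to right) and the mean ± SD beside each group in black. Each vertical axis starts at 0 and has its own scale. Hspb1 (684 to 805 against 1101 to 1222 TPM) and Cryab (279 to 310.0 against 458.5 to 503 TPM) stand apart most widely, while Hsp90aa1, Hspe1 and Dnajb1 overlap.

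Of 6 other small heat shock genes, Hspb7 and Hspb2 reached 1 TPM on average, and Hspb3, Hspb9, Cryaa and Odf1 did not. Hspb7, a filamin-binding protein of heart and skeletal muscle, was at 120.1, 109, 109 and 108 TPM in Lv-Ctrl and at 66.6, 65.5, 67.5 and 68.3 TPM in the Lv-Piezo1-labelled samples. It fell further than any of the 10 genes (log2 fold change -0.73, SE 0.04, limma adjusted p = 6.8e-07). Hspb2, which neighbours Cryab in the RefSeq annotation of GRCr8, was at 20.6, 18.1, 18.6 and 16.2 TPM against 21.7, 19.7, 18.1 and 17.5 TPM. Its groups overlapped (adjusted p = 0.55), while the ratio of Cryab to Hspb2 went from 16.2 ± 2.08 to 25.2 ± 1.45 without overlap.

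The HSP90 genes encode the dimeric chaperones that mature kinases and steroid receptors. Hsp90ab1, the constitutive form, was at 525, 526, 542 and 526 TPM in Lv-Ctrl and at 620.4, 624, 640.0 and 629 TPM in the Lv-Piezo1-labelled samples. The spread within each group was small beside the difference, 530 ± 8.20 against 628 ± 8.62 TPM, and the log2 fold change was 0.25 (SE 0.02, limma adjusted p = 3.3e-05), 0.10 above the median of all tested genes. Hsp90aa1, the more stress-inducible form, was at 224, 235, 179.9 and 227 TPM in Lv-Ctrl and at 184, 167, 191 and 199 TPM in the Lv-Piezo1-labelled samples. Lv-Ctrl 3 lay within the range of the other group and was the only control value that did. The log2 fold change of -0.22 (SE 0.09) missed the threshold (limma adjusted p = 0.058, exact permutation p = 0.11), and without Lv-Ctrl 3 it was -0.30 with an adjusted p of 0.0021. The ratio of Hsp90ab1 to Hsp90aa1 was 2.35, 2.24, 3.01 and 2.31 in Lv-Ctrl and 3.37, 3.73, 3.35 and 3.16 in the Lv-Piezo1-labelled samples, with no overlap.

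The 2 other HSP90 genes were tested as well. Hsp90b1, the endoplasmic reticulum form, went from 1038 ± 17.6 to 1152 ± 26.5 TPM (log2 fold change 0.15, adjusted p = 0.0013). It turned to -0.03 (adjusted p = 0.45) under median-ratio scaling and was at 0.20 (adjusted p = 0.0012) under quantile normalization. Trap1, the mitochondrial form, went from 45.1 ± 0.448 to 63.7 ± 1.92 TPM (0.49, adjusted p = 2.4e-06). Of 21 co-chaperones of HSP70 and HSP90 tested, 12 were higher (41.9% of all tested genes) and 2 lower (16.3%). The other 7 missed the threshold. None of the 21 was called, and the median log2 fold change was 0.17 (0.142 over all tested genes). Cdc37, which brings kinases to HSP90, rose from 239.6 ± 12.7 to 333 ± 6.001 TPM (0.47, adjusted p = 9.4e-06). The ubiquitin ligase gene Stub1 rose from 170.4 ± 5.89 to 207 ± 5.83 TPM (0.28, adjusted p = 0.00012) and missed the threshold under median-ratio scaling (0.10, adjusted p = 0.14). With that scaling 5 co-chaperones were higher (26.7% of all tested genes) and 4 lower (29.2%). Quantile normalization gave 9 higher (28.7%) and 2 lower (27.3%).

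Hspa8, the constitutive HSP70 that folds new proteins and uncoats clathrin vesicles, was the most abundant of the 10 genes. It was at 1664, 1603, 1583 and 1585 TPM in Lv-Ctrl and at 1521, 1523, 1543 and 1525 TPM in the Lv-Piezo1-labelled samples. The groups did not overlap, but the mean differed by little, 1609 ± 38.1 against 1528 ± 10.3 TPM (log2 fold change -0.07, SE 0.03, limma adjusted p = 0.036). The adjusted p rose to 0.05 or above in 7 of 8 fits that left out a sample, all but the fit without Lv-Ctrl 3, while the log2 fold change ran from -0.08 to -0.06, and the sign turned to 0.03 under quantile normalization. Another row of the table, ENSRNOG00000009920, is described as similar to heat shock protein 8. It was at 8.62, 6.84, 30.1 and 10.1 TPM in Lv-Ctrl and at 24.7, 22.3, 34.2 and 21.5 TPM in the Lv-Piezo1-labelled samples, and unlike Hspa8 it was called higher (log2 fold change 1.05, SE 0.39, limma adjusted p = 0.042), with overlapping groups. It was called in 1 of 8 fits that left out a sample, the fit without Lv-Ctrl 3 (1.48, adjusted p = 0.00016), and its adjusted p was 0.06 to 0.11 in the other 7. Under median-ratio scaling the log2 fold change was 0.88 (adjusted p = 0.1). Whether reads were split between this row and Hspa8 was not tested.

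Of 12 other HSP70 and HSP110 genes followed, 11 were tested, 6 were higher (41.9% of all tested genes) and 2 lower (16.3%). The median log2 fold change was 0.19. Under median-ratio scaling 4 were higher (26.7% of all tested genes) and 2 lower (29.2%), and quantile normalization gave 4 (28.7%) and 1 (27.3%). The strongly inducible Hspa1a and Hspa1b were not analysed here. Hspa2, an HSP70 known from testis, was called, with 13.2, 12.7, 15.2 and 13.4 TPM in Lv-Ctrl and 27.0, 27.6, 28.1 and 30.6 TPM in the Lv-Piezo1-labelled samples. Its log2 fold change of 1.00 (SE 0.06, adjusted p = 1.5e-06) lay just past the limit and was 0.83 under median-ratio scaling. Hspa2 fell short of the limit without Lv-Ctrl 1 (0.99), Lv-Ctrl 2 (0.98), Lv-Ctrl 4 (0.997) or Lv-Piezo1 4 (0.97). Hspa5, the endoplasmic reticulum HSP70, went from 1480.5 ± 20.2 to 1368 ± 14.4 TPM (-0.11, adjusted p = 0.003). It turned to 0.01 (adjusted p = 0.73) under quantile normalization and was at -0.29 (adjusted p = 0.00017) under median-ratio scaling. Hspa9, its mitochondrial relative, was at 169 ± 18.3 and 174 ± 10.2 TPM with overlapping groups.

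Dnajb1, an inducible J-domain protein that stimulates HSP70, differed least with TPM as deposited. It was at 41.6, 38.7, 40.2 and 39.5 TPM in Lv-Ctrl and at 39.8, 41.9, 40.6 and 40.1 TPM in the Lv-Piezo1-labelled samples. The groups overlapped, and the log2 fold change was 0.02 (SE 0.04, limma adjusted p = 0.62, exact permutation p = 0.43), 0.12 below the median of all tested genes. Among 22 other J-domain genes, 19 were tested, 6 were higher (41.9% of all tested genes), 5 lower (16.3%) and 8 missed the threshold. Their median log2 fold change was 0.01. Under median-ratio scaling 3 of these were higher (26.7% of all tested genes) and 11 lower (29.2%), with a median of -0.17. Quantile normalization gave 3 higher (28.7%) and 10 lower (27.3%), with a median of -0.13. Dnaja1, another cytosolic partner of HSP70, fell from 182 ± 4.15 to 138 ± 1.70 TPM (-0.40, SE 0.03, adjusted p = 3.2e-06), and the ratio of Dnaja1 to Dnajb1 went from 4.56 ± 0.146 to 3.40 ± 0.108 without overlap. Dnajb11 of the endoplasmic reticulum rose from 109 ± 3.66 to 148 ± 4.31 TPM (0.43, adjusted p = 8.8e-06). The low-level gene Dnajb3 was the only one called, at 1.69 to 2.55 TPM against 4.98 to 6.42 TPM (1.04, adjusted p = 5.6e-05), and it was 0.91 under median-ratio scaling, 0.97 without Lv-Ctrl 2 and 0.98 without Lv-Piezo1 4, short of a call in each.

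Hspd1 and Hspe1 encode the barrel and the lid of the mitochondrial chaperonin. Hspd1 was at 98.3, 100.1, 103 and 98.4 TPM in Lv-Ctrl and at 115, 108, 115 and 117 TPM in the Lv-Piezo1-labelled samples. The groups did not overlap, and the mean rose from 99.9 ± 2.09 to 114 ± 3.84 TPM (log2 fold change 0.19, SE 0.03, limma adjusted p = 0.0013), only 0.04 above the median of all tested genes. Hspe1 was at 95.6, 97.3, 124 and 116 TPM in Lv-Ctrl and at 120.2, 112, 110.4 and 105 TPM in the Lv-Piezo1-labelled samples. Its controls fell into lower values in Lv-Ctrl 1 and 2 and higher values in Lv-Ctrl 3 and 4, with the other group inside their range (log2 fold change 0.06, SE 0.09, limma adjusted p = 0.6, exact permutation p = 0.6). The ratio of Hspd1 to Hspe1 was 0.830 to 1.03 in Lv-Ctrl and 0.956 to 1.11 in the Lv-Piezo1-labelled samples, so the pair stayed near equal TPM in each sample.

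Of 9 genes of mitochondrial protein folding, 4 were higher (41.9% of all tested genes) and 1 lower (16.3%). Median-ratio scaling gave 3 (26.7%) and 2 (29.2%), and quantile normalization 3 (28.7%) and 2 (27.3%). The protease gene Lonp1 rose from 74.8 ± 3.02 to 128 ± 3.50 TPM (0.77, SE 0.04, adjusted p = 3.5e-07). The summed TPM of 13 mitochondrially encoded protein genes went the other way, at 6.87 to 7.74% of all TPM in Lv-Ctrl and 5.69 to 6.16% in the Lv-Piezo1-labelled samples, and with these 13 genes left out and the rest rescaled, Lonp1 was at 0.75 and Hspd1 at 0.16 (adjusted p = 0.003). In that fit 8 of the 10 heat shock genes had an adjusted p under 0.05, against 56.7% of all tested genes, 4 higher (39.2% of all tested genes) and 4 lower (17.5%), with Hsp90aa1 added at -0.24 (adjusted p = 0.045), and Dnajb1 was at -0.00039 (adjusted p = 0.99). There were 13 genes of the cytosolic chaperonin CCT and its partner prefoldin. With TPM as deposited, 4 were higher (41.9% of all tested genes), 2 lower (16.3%) and 7 missed the threshold. Their most abundant genes were Pfdn1 (338 ± 44.1 against 384 ± 37.8 TPM, overlapping) and Cct4, which fell from 234 ± 6.99 to 209.7 ± 3.37 TPM (-0.16, adjusted p = 0.0019). Under median-ratio scaling 0 of these 13 were higher (26.7% of all tested genes) and 7 lower (29.2%). Quantile normalization gave 3 higher (28.7%) and 3 lower (27.3%).

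Of the heat shock factor list, 4 genes were tested, 1 was higher (41.9% of all tested genes) and 2 lower (16.3%). Median-ratio scaling gave 1 higher (26.7% of all tested genes) and 3 lower (29.2%), and quantile normalization also 1 (28.7%) and 3 (27.3%). Hsf1, the main activator of the heat shock response, rose from 23.5 ± 1.42 to 33.8 ± 1.09 TPM (log2 fold change 0.51, SE 0.05, adjusted p = 2.9e-05), and Hsbp1, whose product binds HSF1, fell from 214 ± 2.43 to 174 ± 3.78 TPM (-0.30, SE 0.03, adjusted p = 1.7e-05). Of 16 other genes known as HSF1 targets, 9 were higher (41.9% of all tested genes), 1 lower (16.3%) and 6 missed the threshold. Their median was 0.18 (0.142 over all tested genes). Under median-ratio scaling 5 were higher (26.7% of all tested genes) and 4 lower (29.2%). Quantile normalization gave 8 higher (28.7%) and 1 lower (27.3%). Serpinh1, the collagen chaperone HSP47, was at 1709 ± 72.9 and 1698 ± 31.0 TPM with overlapping groups, and under median-ratio scaling it was at -0.19 (adjusted p = 0.0023).

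HSPB8, BAG3 and STUB1 act together in chaperone-assisted selective autophagy, which clears stretched filamin. Apart from Hspb8, which was counted among the 10 genes and fell, the list followed here held 7 genes, and all were tested. Of these 7, 6 were higher (41.9% of all tested genes) and 1 lower (16.3%). Under median-ratio scaling 3 were higher (26.7% of all tested genes) and 1 lower (29.2%), and quantile normalization gave 5 (28.7%) and 1 (27.3%). Bag3 was at 71.3, 69.8, 68.3 and 69.1 TPM in Lv-Ctrl and at 78.9, 80.8, 85.3 and 78.9 TPM in the Lv-Piezo1-labelled samples. Its log2 fold change was 0.21 (SE 0.04, adjusted p = 7e-04). Under median-ratio scaling it was at 0.04 (adjusted p = 0.44) and under quantile normalization at 0.12 (adjusted p = 0.012). Hspb8 was lower and Bag3 higher, each without overlap, so their ratio also fell without overlap, from 4.53 ± 0.137 to 3.20 ± 0.198. The filamin A gene Flna, the called gene of the list, rose from 120.0 ± 11.4 to 275 ± 10.8 TPM (1.195, SE 0.07, adjusted p = 6.7e-07), and the autophagy receptor gene Sqstm1 fell from 1044 ± 15.1 to 731 ± 19.9 TPM (-0.51, SE 0.03, adjusted p = 6.6e-07).

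Promoter sequences from RefSeq (GRCr8, 250 bases before to 50 after the annotated start) were found for 8 of the 10 genes, all but Cryab and Hsp90aa1. The heat shock element, to which HSF1 binds, was searched as 3 units, GAANNTTCNNGAA or TTCNNGAANNTTC, which cover both strands. It was held by 3 of the 8 promoters, those of Hspa8, Hspd1 and Hspe1, and by 0.798% of all 33469 promoters. The promoters of Hspa8 and Hspe1 are shown, with the element in capitals, because between them they hold each 3-unit match found in the 8 promoters. The Hspa8 window is chr8:50080264-50080563 on the plus strand and that of Hspe1 is chr9:64084077-64084376 on the plus strand.
Hspa8: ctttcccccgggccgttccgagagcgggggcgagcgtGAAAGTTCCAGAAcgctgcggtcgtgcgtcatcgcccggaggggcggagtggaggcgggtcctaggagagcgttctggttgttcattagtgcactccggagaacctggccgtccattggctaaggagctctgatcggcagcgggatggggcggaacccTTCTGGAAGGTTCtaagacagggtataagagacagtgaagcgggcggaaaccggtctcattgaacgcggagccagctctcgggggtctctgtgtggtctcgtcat
Hspe1: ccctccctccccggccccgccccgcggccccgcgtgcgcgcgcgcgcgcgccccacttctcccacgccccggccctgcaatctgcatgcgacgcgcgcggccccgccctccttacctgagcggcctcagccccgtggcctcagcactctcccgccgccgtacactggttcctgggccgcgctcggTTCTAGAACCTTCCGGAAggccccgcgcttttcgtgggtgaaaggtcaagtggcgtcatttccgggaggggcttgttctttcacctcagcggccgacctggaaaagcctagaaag
The Hspa8 elements lay 213 to 201 and 55 to 43 bases before the start. The Hspe1 run of 18 bases, 65 to 48 bases before its start, holds 2 overlapping matches. Hspd1 lies beside Hspe1 on the opposite strand, their windows share 211 bases, and the same run lies 242 to 225 bases before the Hspd1 start (chr9:64083988-64084287, minus strand).

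A shorter form of 2 units, GAANNTTC or TTCNNGAA, was also searched and was held by 7 of 8 promoters, all but that of Hsp90ab1, and by 15.9% of all promoters. Hspb1, the gene with the largest rise among the 8, had 2 such matches and no 3-unit match. They are shown with 12 bases on each side, from chr12:26432411-26432442 and chr12:26432391-26432422 on the minus strand.
Hspb1 upstream match: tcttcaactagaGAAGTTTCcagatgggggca
Hspb1 downstream match: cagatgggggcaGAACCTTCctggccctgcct
They lay 129 to 122 and 109 to 102 bases before the start. Among genes with the short form and no 3-unit match, Hspb1 was higher and Hspb6 (2 matches) and Hspb8 (1 match) lower. Dnajb1 (2 matches) did not pass with TPM as deposited and was at -0.15 (adjusted p = 0.018) under median-ratio scaling. Whether the short form had a part in these values was not tested. A match is a description of letters, and binding was not measured.

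The scaling between samples set part of the directions. TPM as deposited gave a median log2 fold change of 0.142 over all tested genes, with 64.1% of the called genes higher in the Lv-Piezo1-labelled samples, and median-ratio scaling gave -0.019 and 51.4%. Quantile normalization gave a median of -0.0036 and 48.8%. Hspb1 (0.50), Cryab (0.54), Hspb6 (-0.51) and Hspb8 (-0.46) kept their direction and an adjusted p under 0.05 under median-ratio scaling. With that scaling Hsp90ab1 and Hspd1 no longer passed, at 0.07 (adjusted p = 0.2) and 0.01 (adjusted p = 0.89). Hsp90aa1 passed at -0.40 (adjusted p = 0.00098) and Hspa8 was at -0.25 (adjusted p = 0.00025). Hspe1 and Dnajb1 turned to -0.12 (adjusted p = 0.38) and -0.15 (adjusted p = 0.018). The count of genes with an adjusted p under 0.05 was again 7 of 10, against 55.9% of all tested genes under the same scaling. Of these, 2 were higher (26.7% of all tested genes) and 5 lower (29.2% of all tested genes). Under quantile normalization 4 of the 10 genes were higher (28.7% of all tested genes) and 3 lower (27.3%). Hsp90ab1 was then at 0.27 (adjusted p = 6e-06) and Hspd1 at 0.13 (adjusted p = 0.014). Hsp90aa1 was at -0.23 (adjusted p = 0.049) and Hspa8 at 0.03 (adjusted p = 0.42).

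**Figure D2:**
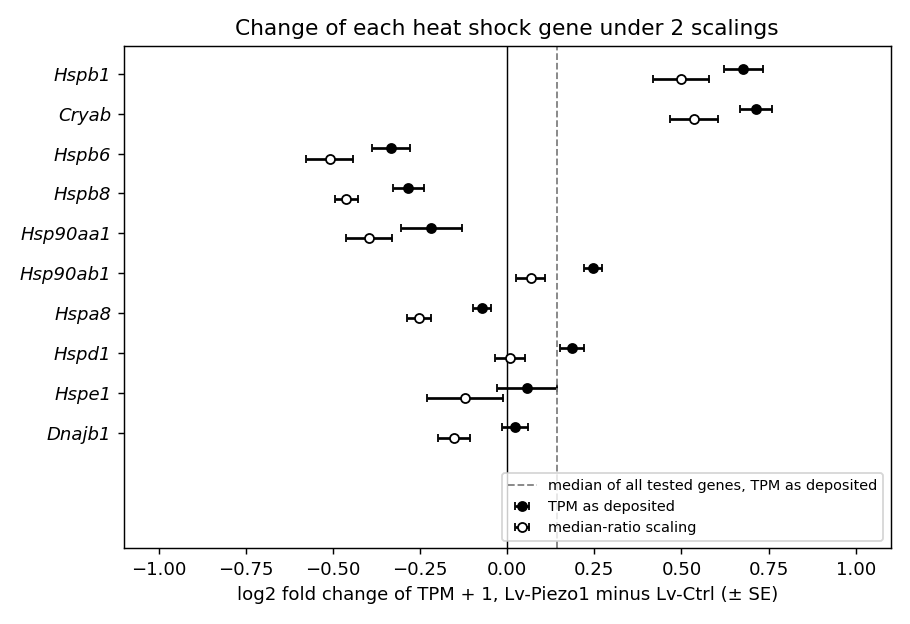
Log2 fold change of TPM + 1 (Lv-Piezo1-labelled minus Lv-Ctrl, horizontal axis, bars ± SE) for each of the 10 genes, with TPM as deposited (filled points) and after median-ratio scaling (open points). The dashed line is the median of all tested genes with TPM as deposited, 0.142. Hspb1 and Cryab lie to the right and Hspb6 and Hspb8 to the left of 0 in both, whereas Hspe1 and Dnajb1 change sign.

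Within groups, Lv-Ctrl 3 and Lv-Piezo1 4 were most often at the edge. Lv-Ctrl 3 was the highest control for 6 of the 10 genes and the lowest for 3, and it was the highest or lowest control for 71.1% of all tested genes, against 38.7 to 48.1% for the other controls. Lv-Piezo1 4 was the highest or lowest of its group for 7 of the 10 genes and for 64.7% of all tested genes, against 41.1 to 55.2% for the others of that label. Without Lv-Piezo1 4, 6 of 10 had an adjusted p under 0.05, against 54.8% of all tested genes in that fit, since Hspa8 no longer passed. Without Lv-Ctrl 3, 8 of 10 genes had an adjusted p under 0.05, against 58.9% of all tested genes, 4 higher (40.9% of all tested genes) and 4 lower (18.0%). Lv-Ctrl 2 carried striated muscle transcripts, with a sum over 11 markers of 41.3 TPM against 12.9 to 14.1 TPM in the other controls and 14.7 to 16.7 TPM in the Lv-Piezo1-labelled samples. In Lv-Ctrl 2 Ckm (14.0 TPM, against 1.31 to 1.93 TPM in the other controls) stood above Tnnt3 (13.3 TPM), which led on the mean of all 8 samples, and Tnni2 (4.57 TPM) and Myh4 (4.26 TPM) were also highest there. Myod1 and Myog were at 0. Of the 6 striated muscle markers tested, 0 were higher (41.9% of all tested genes) and 2 lower (16.3%). Mb, the myoglobin gene, was called lower (1.76 ± 0.523 against 0.363 ± 0.244 TPM), just past the fold change limit. Unlike Ckm, Mb was highest in Lv-Ctrl 4 (2.48 TPM) and not in Lv-Ctrl 2 (1.77 TPM). With a sample left out it was called in 3 of 8 fits, fell short of that limit without Lv-Piezo1 2 (-0.93) and without Lv-Piezo1 3 (-0.99), and was under a mean of 1 TPM and so not tested without Lv-Ctrl 1, 2 or 4. Without Lv-Ctrl 2, 6 of 10 genes had an adjusted p under 0.05, against 56.0% of all tested genes, since Hspa8 no longer passed.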

How the data were processed

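Total RNA of 8 samples (4 Lv-Ctrl, 4 Lv-Piezo1) was sequenced by the authors on an Illumina Novaseq, mapped with HISAT2 and assembled with StringTie, and the authors deposited TPM values per gene in 1 table, with 2 further columns that held the authors' group means and were not used. The authors' methods name FPKM, a rat genome and DESeq, whereas the authors' processing notes name DESeq2 and the mouse build mm10. The gene identifiers were rat, and the build was not settled. TPM keeps no read depth, so no count model applied.

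Values were taken as log2(TPM + 1), and fold changes on this scale understate changes of low genes. Genes at or above 1 TPM on average (13103 of 31699 rows) were fitted with limma 3.58.1 in R 4.3.3 (eBayes with a trend, 2-sided, Benjamini-Hochberg adjustment over all tested genes). Single genes were also tested by exact two-sided permutation over 70 relabelings. The code was tested on simulated data. Alternatives were a pseudocount of 0.1, no filter, a mean of at least 5 TPM, median-ratio scaling, quantile normalization, removal of 13 mitochondrially encoded protein genes, no trend, the replicate number as a block, and each sample left out. The members and lists were chosen with earlier results of these data known. Named from the lists were called genes, the 2 most abundant of each chaperone list and the most abundant of each cell type list, plus Bag3 and Hsf1. The result of 1 gene that this rule names is not reported here. ENSRNOG00000009920, Emcn, Hapln1, Sox9, Col1a2, Mkx, Scx, Fmod, Ckm, Myh4, Tnni2, Tnmd, Tbxt, Noto, Shh, Matn1, Myod1, Myog and the genes under 1 TPM were named after their values were seen. The 3-unit element was the planned search, and the 2-unit form was added afterwards.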

Additional observations from a re-analysis of the deposited data

Results flagged for a closer look

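The 4 values of each group were examined for 14 quantities, 28 groups in all, and 4 had a sample far from the other 3, where chance gives about 1 in 20 groups. Hspb6 was lowest in Lv-Piezo1 4 (44.2 TPM), Hspb8 lowest in Lv-Ctrl 3 (298 TPM) and Hsp90ab1 highest in Lv-Ctrl 3 (542 TPM). The summed striated muscle markers were highest in Lv-Ctrl 2 (41.3 TPM). The source of these values was not tested.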

How the results depend on the processing

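Across 16 alternatives for each of the 10 genes and Piezo1, 176 values in all, 154 kept their direction and side of the adjusted p threshold. Hspb1, Cryab, Hspb6 and Hspb8 kept theirs in all 16, as did Piezo1. The count of called heat shock genes was 0 in each alternative, and the number with an adjusted p under 0.05 ran from 6 to 8. Across the table, 628 genes were called when a mean of at least 5 TPM was required, where fewer genes were tested, and 7626 with no fold change threshold, against 1005. Leaving out each sample gave 996 to 1038.

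The direction reversed under median-ratio scaling for Dnajb1 (-0.15), Hspe1 (-0.12), Egfl7 (-0.11), Hsp90b1 (-0.029), Hspa9 (-0.13) and Hspb2 (-0.11). It reversed under quantile normalization for Dnajb1 (-0.091), Egfl7 (-0.058), Hspa5 (0.014), Hspa8 (0.032), Hspb2 (-0.091) and Serpinh1 (0.068), and with mitochondrially encoded genes left out for Dnajb1 (-0.00039). With samples left out, Egfl7 ran from -0.016 to 0.13, Hspa9 from -0.036 to 0.081, Serpinh1 from -0.029 to 0.016, Sox9 from -0.070 to 0.032 and Ckm from -0.80 to 0.098. Tnni2 reversed at a pseudocount of 0.1 (0.040). The cause was not tested.

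With the replicate number as a block, 1004 genes and 0 of the 10 were called, 6 of 10 had an adjusted p under 0.05, against 53.2% of all tested genes, and the log2 fold change of Hspa8 stayed at -0.07 with an adjusted p of 0.11. Pfdn1 passed with the block (0.19, adjusted p = 0.048) and in none of its other 15 alternatives (adjusted p = 0.055 to 0.96). No sample correlated best with its own number in the other group (0 of 4, correlations -0.06 to -0.01), so the numbers were not taken as pairs. These correlations cannot tell whether the samples were paired by isolation under other numbers.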
